A study of Mus musculus with 6 samples.

Results

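The aminoacyl-tRNA synthetase genes were examined in the gastrocnemius (GAS) muscle of Kvβ2 knockout (KO) and wildtype (WT) mice. Members were chosen by gene symbol alone, as the symbols made of an amino acid letter and "ars", with or without a final digit, together with *Eprs*, *Farsa* and *Farsb*. The rule found 38 of the 37979 entries of the expression table, with 37 distinct symbols. Of these, 37 entries were among the 12334 entries with a mean of at least 0.5 FPKM (mapped fragments corrected for transcript length and library size) and were tested. The other entry, a second *Yars* identifier (ENSMUSG00000088921), was listed at 0 in every library. A symbol ending in 2 marks the mitochondrial enzyme, which gave 20 cytosolic and 17 mitochondrial members.

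RNA-seq compared GAS muscle of 3 KO and 3 WT mice, with 1 library per mouse, to ask which genes depend on Kvβ2, the potassium channel beta subunit encoded by *Kcnab2*. The KO mice were homozygous for a null allele (Kvβ2-/-) in all tissues, and the WT mice were age-matched offspring of the same kind of heterozygous intercross. All were males of 20 weeks, and none was treated. The libraries of both genotypes carried the replicate numbers 1, 7 and 8, and values are given in that order throughout. The null allele is not restricted to muscle, and whole GAS was extracted, so fewer cells of a type and less RNA per cell cannot be told apart.

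Aminoacyl-tRNA synthetases join each amino acid to its tRNA before the ribosome can use it. Most cytosolic and mitochondrial enzymes are products of separate nuclear genes, and the mitochondrial set serves the synthesis of the respiratory chain subunits encoded in mitochondrial DNA. *Gars* and *Kars* each supply both compartments, and several cytosolic enzymes sit together in a multi-synthetase complex. Many cytosolic synthetase genes are known targets of ATF4, the transcription factor of the amino acid response, which binds with C/EBP partners at a short element near the start site.

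Promoter windows from RefSeq (build GRCm38.p6, 250 bases before to 50 bases after a start site) were found for 27 of the 37 members. *Cars*, *Hars*, *Hars2*, *Lars*, *Nars*, *Pars2*, *Rars*, *Vars* and *Wars* were among those without one. The core of the amino acid response element, TGATGNAA on either strand, was searched in each window. It was present in 5 of 13 cytosolic windows (38.5%), in 0 of 14 mitochondrial windows and in 192 of the 8957 windows of all tested genes (2.14%). The motif was chosen after the expression values were seen, and a match describes letters, not a bound site. One site within 50 bases of the start of each of these genes is shown, because the cytosolic windows alone held the core. Each is written with the core in capitals and 10 bases on either side, on the strand that reads TGATGNAA.
Aars site, chr8:111033841-111033868, minus strand: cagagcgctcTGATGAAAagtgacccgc
Gars site, chr6:55037961-55037988, minus strand: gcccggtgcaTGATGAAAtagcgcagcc
Iars site, chr13:49682127-49682154, minus strand: cgtctggaggTGATGCAAtactgacagt
Tars site, chr15:11399656-11399683, plus strand: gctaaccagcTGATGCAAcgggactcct
Yars site, chr4:129189896-129189923, plus strand: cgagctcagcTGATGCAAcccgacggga
The site of *Aars* lay 10 bases after its start. The site of *Gars* lay 23 bases and that of *Tars* 8 bases before the start, whereas those of *Iars* and *Yars* lay 8 and 4 bases after it. The same letters, read on the strand of the gene, stand in capitals in the 250 bases before the start of *Gars* and *Tars*. The windows of *Sars2* and *Aars2*, the members with the largest KO to WT ratios, are set beside them and hold no match.
Gars promoter, chr6:55037751-55038000, plus strand: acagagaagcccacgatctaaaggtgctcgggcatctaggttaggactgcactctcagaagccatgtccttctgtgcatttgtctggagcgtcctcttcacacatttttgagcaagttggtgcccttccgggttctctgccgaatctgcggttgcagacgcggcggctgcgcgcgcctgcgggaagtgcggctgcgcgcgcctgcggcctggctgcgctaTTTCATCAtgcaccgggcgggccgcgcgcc
Tars promoter, chr15:11399659-11399908, minus strand: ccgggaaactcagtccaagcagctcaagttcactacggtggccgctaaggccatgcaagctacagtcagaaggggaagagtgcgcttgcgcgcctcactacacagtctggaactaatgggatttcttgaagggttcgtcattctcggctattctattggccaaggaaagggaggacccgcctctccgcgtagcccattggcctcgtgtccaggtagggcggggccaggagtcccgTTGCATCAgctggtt
Sars2 promoter, chr7:28741718-28741967, plus strand: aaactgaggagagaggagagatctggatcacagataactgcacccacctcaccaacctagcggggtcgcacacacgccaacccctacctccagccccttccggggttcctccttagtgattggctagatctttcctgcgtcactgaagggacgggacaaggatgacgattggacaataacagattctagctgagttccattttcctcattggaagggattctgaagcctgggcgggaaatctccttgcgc
Aars2 promoter, chr17:45506591-45506840, plus strand: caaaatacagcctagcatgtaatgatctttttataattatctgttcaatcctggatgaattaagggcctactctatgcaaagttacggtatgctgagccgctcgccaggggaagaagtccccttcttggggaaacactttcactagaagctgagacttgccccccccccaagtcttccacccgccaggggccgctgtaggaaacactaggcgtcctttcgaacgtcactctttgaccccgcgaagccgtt

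The *Kcnab2* level was 0.233, 0.1 and 0.11 FPKM in WT and 0, 0.0151 and 0 FPKM in KO, as the labels state. The depth estimated from the steps of low FPKM values was 19230000 to 20140000 fragments in the WT and 13920000 to 18150000 in the KO libraries, so the KO libraries were all shallower than the WT libraries. The least covered member was *Pars2*, for which these depths give about 62 to 103 fragments per library. Of 8 myofiber markers, 7 were detected, with a summed level of 29846 to 46739.6 FPKM in WT and 45376 to 51591 FPKM in KO, and *Myh4* was listed at 0 in every library. Summed markers of endothelium, fibroblasts, macrophages, adipocytes, Schwann cells and satellite cells overlapped between genotypes. The 3 erythroid markers in the table summed to 64.9 to 98.2 FPKM in WT and to 113 to 228 FPKM in KO, higher in every KO library, and the part of blood in the results below was not tested.

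The cytosolic enzymes were the more abundant class. Their median level over the 6 libraries was 21.7 FPKM (range 6.36 to 49), against 4.4 FPKM (1.48 to 155) for the mitochondrial enzymes and 4.99 FPKM for all tested genes. Without *Lars2*, the highest mitochondrial mean was 17.7 FPKM. The geometric mean of the cytosolic members was 18.9, 21.6 and 22 FPKM in WT and 22.3, 19.9 and 22.1 FPKM in KO. That of the mitochondrial members was 4.51, 5.33 and 5.08 FPKM in WT and 5.65, 5.61 and 5.13 FPKM in KO. Both classes overlapped between genotypes, the mitochondrial class by less. Without *Lars2*, left out after its values were seen, the mitochondrial geometric mean was 3.62, 4.05 and 4.42 FPKM in WT. In KO it was then 4.53, 4.88 and 4.44 FPKM, so the genotypes nearly met but did not overlap.

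The ratio of the cytosolic to the mitochondrial geometric mean was 4.19, 4.05 and 4.33 in WT and 3.95, 3.55 and 4.32 in KO, again with overlap. *Lars2* differed widely within genotypes, and without it the ratio was 5.22, 5.33 and 4.98 in WT and 4.92, 4.08 and 4.98 in KO, so that the lowest WT and the highest KO value met. WT replicate 1 gave the lowest value of the 6 libraries for 9 cytosolic and 10 mitochondrial members. KO replicate 7 gave the lowest value for another 9 cytosolic members and the highest for 6 mitochondrial ones.

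For 15 amino acids both enzymes were present, which made 16 pairs because the cytosolic phenylalanine enzyme has subunits from *Farsa* and *Farsb*. The cytosolic FPKM was above the mitochondrial FPKM in every library in 14 pairs. The exceptions were *Lars* over *Lars2*, with a ratio of 0.0355 to 0.343, and *Farsa* over *Fars2*, with a ratio of 0.947 to 1.38. The widest gaps in WT were *Nars* over *Nars2* (16.5 ± 0.906, SD, n = 3), *Mars* over *Mars2* (12.3 ± 0.643) and *Sars* over *Sars2* (12 ± 0.325).

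**Figure D1:**
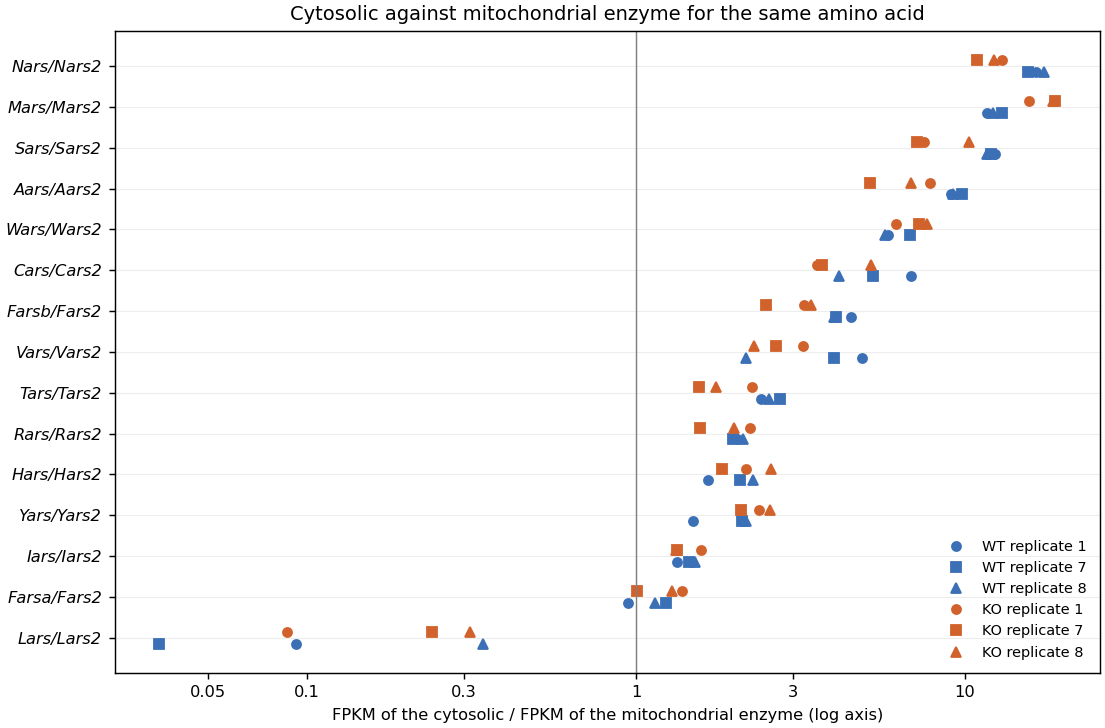
Ratio of the FPKM of the cytosolic to that of the mitochondrial enzyme (log axis) for 15 of the 16 pairs, with 1 point per library. The points lie right of 1 except those of *Lars*/*Lars2* and the lowest point of *Farsa*/*Fars2* (0.947), and the KO points lie apart from the WT points in *Aars*/*Aars2*, *Nars*/*Nars2*, *Farsb*/*Fars2*, *Sars*/*Sars2*, *Tars*/*Tars2* and *Mars*/*Mars2*.

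The ratio of the paired enzymes was lower in every KO library than in every WT library for 5 pairs. It went from 12 to 8.33 for serine, from 9.39 to 6.63 for alanine, from 16.5 to 12.1 for asparagine, from 4.19 to 3.04 for *Farsb* over *Fars2* and from 2.56 to 1.85 for threonine, as means of 3 libraries. The methionine pair went the other way, from 12.3 to 17.7, with *Mars* higher and *Mars2* lower in every KO library. Their GC contents were 53.4% and 38.8%, and after the correction for GC content their log2 fold changes were 0.13 and 0.20, so that *Mars2* no longer went the other way. For the 5 pairs with a lower ratio, the corrected values are given with the cytosolic enzyme first. They were 0.26 and 0.46 for serine, 0.074 and 0.16 for alanine, and 0.01 and 0.58 for asparagine. *Farsb* and *Fars2* were at -0.053 and 0.077, and the threonine pair was at 0.079 and 0.24. The mitochondrial transcript had the higher GC content in each of these pairs except asparagine. No background over other gene pairs was computed for these counts. A single ratio of 3 against 3 libraries cannot fall under a two-sided exact permutation p of 0.1.

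No synthetase differed between genotypes at an adjusted p under 0.05 in limma on log2(FPKM + 0.1), where 0.251% of all tested genes were called higher and 0.0730% lower in KO. At an unadjusted p under 0.05, 7 of 37 members were higher (18.9%) and 0 were lower in KO, against 15.3% and 10.9% of all tested genes. For 11 members (29.7%) the 3 KO libraries all exceeded the 3 WT libraries, and they were all below them for 4 (10.8%), against 18.3% and 16.2% of all tested genes. The log2 fold change was above 0 for 20 members, and the share over all tested genes was 51.0%. With library weights estimated by limma, 8 members passed the adjusted threshold, in a fit that also called 1863 genes higher and 1284 lower.

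The classes differed in these counts. Among the 17 mitochondrial members, 8 lay above WT in every KO library (47.1%) and 1 below (5.88%), and the median log2 fold change was 0.23. Among the 20 cytosolic members, 3 lay above (15%) and 3 below (15%), with a median of 0.0076, and the median of all tested genes was 0.01. Over all tested genes 18.3% lay above and 16.2% below. The cytosolic minus the mitochondrial median was -0.23, less than the spread of that difference between single libraries (SD 0.272). That SD is not the error of a difference between groups of 3 libraries, and the difference of the medians was not tested. It was -0.031 without KO replicate 7, -0.074 without WT replicate 1, -0.069 with library weights and -0.033 with the correction for GC content described below. Without *Lars2*, an alternative chosen after its values were seen, the mitochondrial median was 0.24. By catalytic fold, 8 of 18 class II enzymes lay above WT in every KO library (44.4%) against 3 of 18 class I enzymes (16.7%), with medians of 0.16 and 0.007. With the GC correction, 4 mitochondrial members lay above and 1 below WT in every KO library, and 2 cytosolic members above and 1 below. Of the class II enzymes 5 and of the class I enzymes 0 then lay above. Over all tested genes 8.97% lay above and 9.54% below in that fit.

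**Figure D2:**
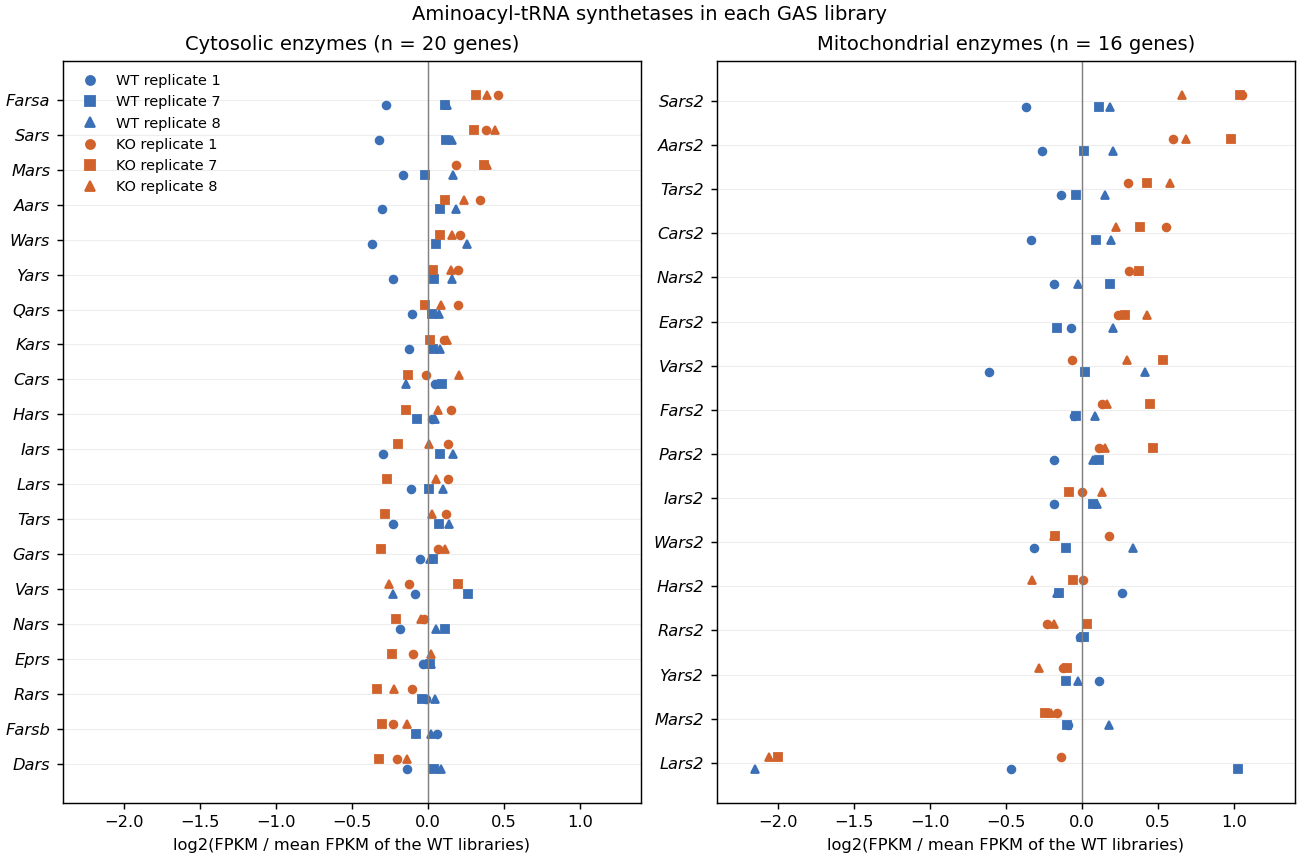
FPKM of the 20 cytosolic and of 16 of the 17 mitochondrial synthetases in each library relative to the mean of the 3 WT libraries, on a log2 scale, with genes ordered by log2 fold change in each class. WT and KO points are apart at the top of both panels and cross in the middle, and the *Lars2* points spread over more than any other gene.

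*Sars2*, which charges mitochondrial serine tRNAs, had the largest ratio of KO to WT. It lies at chr7:28741992-28753871 (GRCm38, plus strand) and was at 2.12, 2.96 and 3.12 FPKM in WT and at 5.68, 5.65 and 4.33 FPKM in KO. Every KO library was above every WT library, with means of 2.74 ± 0.538 and 5.22 ± 0.771 FPKM (SD, n = 3). The log2 fold change was 0.92 (SE 0.19, adjusted p = 0.0708 in limma), and it was 0.75 without WT replicate 1, the lowest value. These levels stand for about 77 to 191 fragments per library.

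*Aars2*, the mitochondrial alanine enzyme (chr17:45506841-45520843, plus strand), followed with 1.51, 1.83 and 2.09 FPKM in WT and 2.74, 3.57 and 2.91 FPKM in KO. The genotypes did not overlap, with a log2 fold change of 0.74 (SE 0.18, adjusted p = 0.0785 in limma). *Tars2*, the mitochondrial threonine enzyme (chr3:95739976-95760206, minus strand), was at 5.64, 6.04 and 6.88 FPKM in WT and 7.64, 8.35 and 9.24 FPKM in KO. Its lowest KO value was above its highest WT value, and its log2 fold change was 0.44 (SE 0.13, adjusted p = 0.104). *Sars2*, *Aars2* and *Tars2* kept an unadjusted p under 0.05 in each of the 6 fits that left out a library. With the correction for GC content their log2 fold changes were 0.46, 0.16 and 0.24, and *Aars2* and *Tars2* no longer passed that level (unadjusted p = 0.235 and 0.0568 in limma).

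*Nars2*, the mitochondrial asparagine enzyme (chr7:96951505-97064758, plus strand), was at 2.33, 3.02 and 2.6 FPKM in WT and at 3.29, 3.44 and 3.43 FPKM in KO. The KO libraries were tightly grouped (SD 0.0841) just above the WT range, with a log2 fold change of 0.35 (SE 0.14, adjusted p = 0.172). *Cars2*, for cysteine, was at 3.02, 4.06 and 4.35 FPKM in WT and 5.59, 4.96 and 4.45 FPKM in KO. Here the closest libraries, WT replicate 8 and KO replicate 8, were 4.35 and 4.45 FPKM, and the log2 fold change was 0.39 (SE 0.17, adjusted p = 0.195), or 0.24 without WT replicate 1.

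The remaining mitochondrial members without overlap differed by less. *Ears2*, for glutamate, was at 2.19, 2.05 and 2.65 FPKM in WT and at 2.71, 2.8 and 3.09 FPKM in KO (log2 fold change 0.31, adjusted p = 0.23). *Fars2*, a single-chain phenylalanine enzyme, was at 7.79, 7.87 and 8.56 FPKM in WT and 8.86, 11 and 9.04 FPKM in KO (0.25, adjusted p = 0.25). The highest *Fars2* value was in KO replicate 7, without which the log2 fold change was 0.15. *Pars2*, the proline enzyme and the least abundant member, was at 1.19, 1.46 and 1.42 FPKM in WT and 1.46, 1.87 and 1.5 FPKM in KO (0.23, adjusted p = 0.449), so WT replicate 7 and KO replicate 1 nearly met. Its log2 fold change was 0.13 without KO replicate 7.

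*Mars2*, a gene for the mitochondrial methionine enzyme, was the one mitochondrial member below WT in every KO library. It was at 1.58, 1.57 and 1.9 FPKM in WT and at 1.5, 1.42 and 1.46 FPKM in KO (log2 fold change -0.19, adjusted p = 0.481), and the log2 fold change was -0.10 without WT replicate 8. *Wars2*, for tryptophan, was among the 3 members of lowest level, at 1.35, 1.56 and 2.12 FPKM in WT and 1.9, 1.49 and 1.48 FPKM in KO, with full overlap. *Hars2*, *Iars2*, *Rars2*, *Vars2* and *Yars2* also overlapped between genotypes, with log2 fold changes from -0.16 to 0.30.

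**Figure D3:**
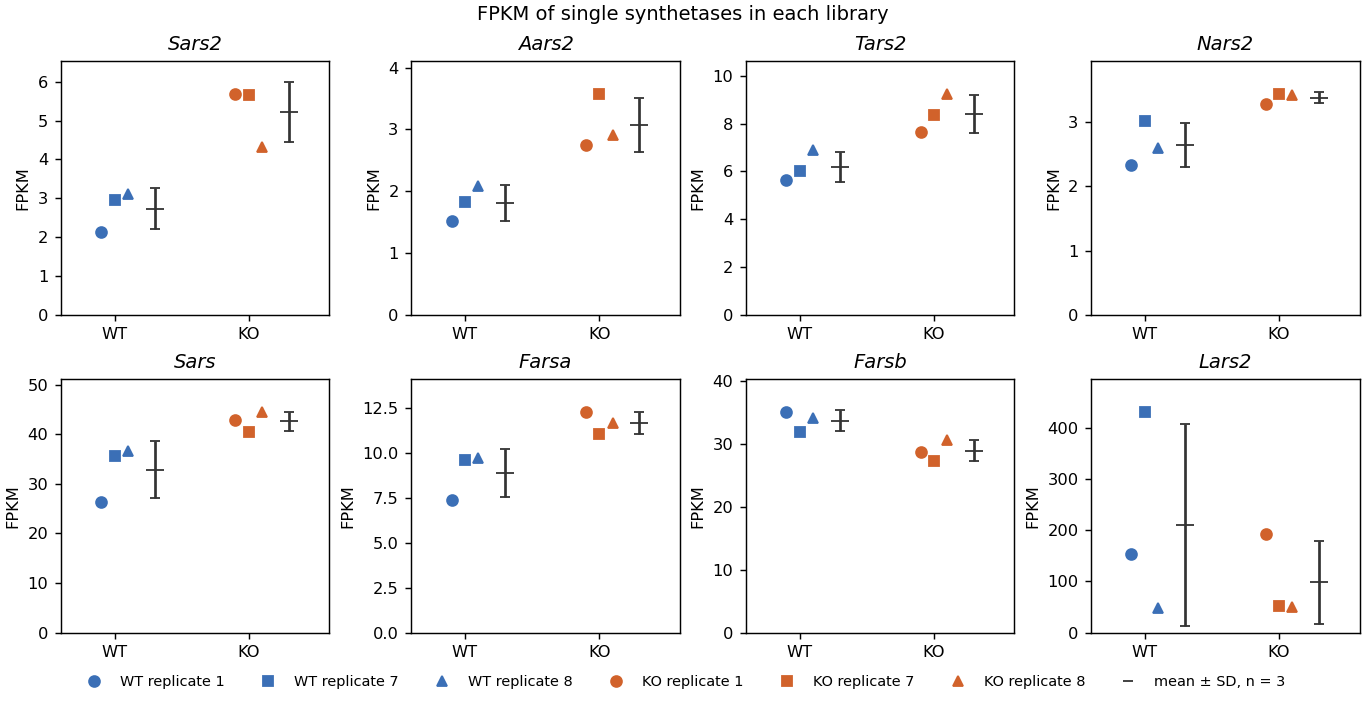
FPKM of 8 synthetases in each library, with 1 point per library and the mean ± SD of 3 libraries beside them, and axes that start at 0. The KO points of *Sars2*, *Aars2*, *Tars2*, *Nars2*, *Sars* and *Farsa* are all above and those of *Farsb* all below the WT points, while *Lars2* ranges from 47.6 to 431 FPKM among WT libraries.

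*Lars2*, the mitochondrial leucine enzyme (chr9:123366927-123462666, plus strand), was listed at the highest level of any member and was the least reproducible. Whether all of these fragments came from its mRNA was not tested, so the level is not read as expression of the enzyme. Its WT libraries were at 153, 431 and 47.6 FPKM and its KO libraries at 192, 52.8 and 50.6 FPKM. High and low values occurred in both genotypes, and the log2 fold change of -0.87 had an SE of 0.82 (adjusted p = 0.521). Leaving out WT replicate 8 gave -1.68 and leaving out WT replicate 7 gave -0.092, so no direction was assigned. The next mitochondrial mean was 17.7 FPKM, for *Iars2*.

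Of the cytosolic enzymes, *Farsa*, *Sars* and *Mars* were above WT in every KO library. *Sars*, which charges cytosolic serine tRNA (chr3:108424865-108445209, minus strand), was at 26.3, 35.6 and 36.7 FPKM in WT and at 42.8, 40.5 and 44.5 FPKM in KO. The KO libraries were close to each other (42.6 ± 2.02 FPKM, SD, n = 3) and the WT libraries were spread by the low replicate 1. The log2 fold change was 0.39 (SE 0.15, adjusted p = 0.156) and 0.24 without that library.

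*Mars*, the cytosolic methionine enzyme (chr10:127296221-127311786, minus strand), was at 18.5, 20.4 and 23.2 FPKM in WT and at 23.5, 26.7 and 27.1 FPKM in KO. WT replicate 8 and KO replicate 1 were nearly equal, and the log2 fold change was 0.32 (SE 0.12, adjusted p = 0.161). *Mars* overlaps *Ddit3* on the opposite strand, which had a log2 fold change of 0.61, and whether fragments were assigned by strand is not given in the sources used here. *Cars2*, *Ears2* and *Fars2* likewise overlap expressed genes on the opposite strand, and 9 members in all overlap another expressed gene.

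*Farsa* and *Farsb* encode the alpha and beta subunits of the same cytosolic phenylalanine enzyme, and they differed in direction. *Farsa* (chr8:84856989-84869257, plus strand) was at 7.38, 9.65 and 9.74 FPKM in WT and at 12.3, 11.1 and 11.7 FPKM in KO (log2 fold change 0.40, SE 0.14, adjusted p = 0.139). *Farsb* (chr1:78417975-78488897, minus strand) was at 35.1, 31.9 and 34.2 FPKM in WT and at 28.8, 27.3 and 30.7 FPKM in KO (-0.22, SE 0.10, adjusted p = 0.212). The *Farsa* to *Farsb* ratio was 0.21, 0.302 and 0.285 in WT and 0.425, 0.407 and 0.381 in KO, without overlap. Neither subunit passed the threshold, and the 2 transcripts differ in GC content (54.3% and 46%), a property that moved with the fold changes as described below. After the GC correction the log2 fold changes were 0.14 for *Farsa* and -0.053 for *Farsb*, and both genes overlapped between genotypes.

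*Dars* and *Rars*, which charge aspartate and arginine, were the other cytosolic members below WT in every KO library. *Dars* was at 27.3, 30.9 and 31.9 FPKM in WT and 26.1, 24 and 27.3 FPKM in KO (log2 fold change -0.22, adjusted p = 0.246), so WT replicate 1 and KO replicate 8 met to the digits shown. *Rars* was at 20, 19.7 and 20.9 FPKM in WT and 18.8, 16 and 17.3 FPKM in KO (-0.22, adjusted p = 0.236). The other 14 cytosolic members overlapped between genotypes, with log2 fold changes from -0.10 to 0.24. Among them were the most abundant cytosolic enzymes, *Kars* for lysine, at 43.6, 48.7 and 50.4 FPKM in WT and 51.2, 48 and 52 FPKM in KO, and *Nars* for asparagine, at 38.4, 47.1 and 45.2 FPKM in WT and 42.9, 37.7 and 42.2 FPKM in KO.

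The 8 tested enzymes of the multi-synthetase complex (*Dars*, *Eprs*, *Iars*, *Kars*, *Lars*, *Mars*, *Qars* and *Rars*) did not move together before the correction for GC content. *Mars* was above and *Dars* and *Rars* were below WT in every KO library, and the median log2 fold change was -0.015 (range -0.22 to 0.32), against 0.021 for the 12 cytosolic enzymes outside the complex. Over all tested genes 18.3% lay above and 16.2% below WT in every KO library. With the GC correction described below, 1 of the 8 lay above and 0 below, and all 8 log2 fold changes were above 0. None of the 8 passed an unadjusted p under 0.05 in limma in that fit. Of the 12 cytosolic enzymes outside the complex, 8 were then above 0. Of the 3 scaffold proteins of the complex, *Eef1e1* (also called AIMP3) was at 11.4, 11.7 and 12 FPKM in WT and at 9.05, 7.83 and 9.06 FPKM in KO. It lay below WT in every KO library (log2 fold change -0.44, SE 0.11, adjusted p = 0.0826), and again after the GC correction, at -0.23. *Aimp1* (-0.19) and *Aimp2* (0.069) overlapped between genotypes.

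The order of the synthetases by fold change followed the GC content of their transcripts. Across all 11985 tested genes of known GC content, GC content and the log2 fold change had a Spearman rho of 0.704, and across the 37 synthetases it was 0.729 (0.779 in the cytosolic and 0.684 in the mitochondrial class). These correlations are across genes of the same 6 libraries, which share depth and preparation, and are given as descriptions. Of the 15 members with a GC content of 52% or more, 14 had a log2 fold change above 0 and 10 lay above WT in every KO library (66.7%, against 40.5% of all tested genes in that range). Of the 22 members under 52%, 6 were above 0 and 1 lay above WT in every KO library (4.55%, against 4.14%). The limit of 52% was chosen after the values were seen.

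After a loess correction of each library for GC content, the class medians came closer to each other, at 0.059 for the cytosolic and 0.092 for the mitochondrial enzymes, with 0.0012 for all tested genes. In that fit 2 synthetases were higher at an unadjusted p under 0.05 and 1 was lower, against 5.72% and 5.47% of all tested genes, and none passed the adjusted threshold, which 0.0501% of all tested genes passed as higher and 0.0668% as lower. The KO libraries all exceeded the WT libraries for 6 members and were all below them for 2, against 8.97% and 9.54% of all tested genes. The log2 fold change was above 0 for 28 of the 37 members and for 50.3% of all tested genes. All 8 enzymes of the multi-synthetase complex were then above 0, with a median of 0.077, as were 16 of the 20 cytosolic members.

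Some members stood off the trend with GC content. *Nars2* had a GC content of 44.5%, a range in which most tested genes were lower in KO, and its log2 fold change went from 0.35 to 0.58 with the correction (unadjusted p = 0.00558 in limma). *Sars2*, at 57.2%, went from 0.92 to 0.46 (unadjusted p = 0.0161 in limma), while *Aars2*, at 59.2%, went from 0.74 to 0.16 (unadjusted p = 0.235 in limma). *Vars*, the cytosolic valine enzyme, had the highest GC content of any member (59.9%) and was at 6.11, 7.78 and 5.53 FPKM in WT and 5.95, 7.41 and 5.42 FPKM in KO. Its uncorrected log2 fold change was -0.045 and its corrected one -0.65 (unadjusted p = 0.00794 in limma). The differences of *Dars*, *Rars*, *Mars2*, *Nars* and *Wars2* changed sign with the correction, to between 0.01 and 0.20, and *Farsb* went from -0.22 to -0.053.

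**Figure D4:**
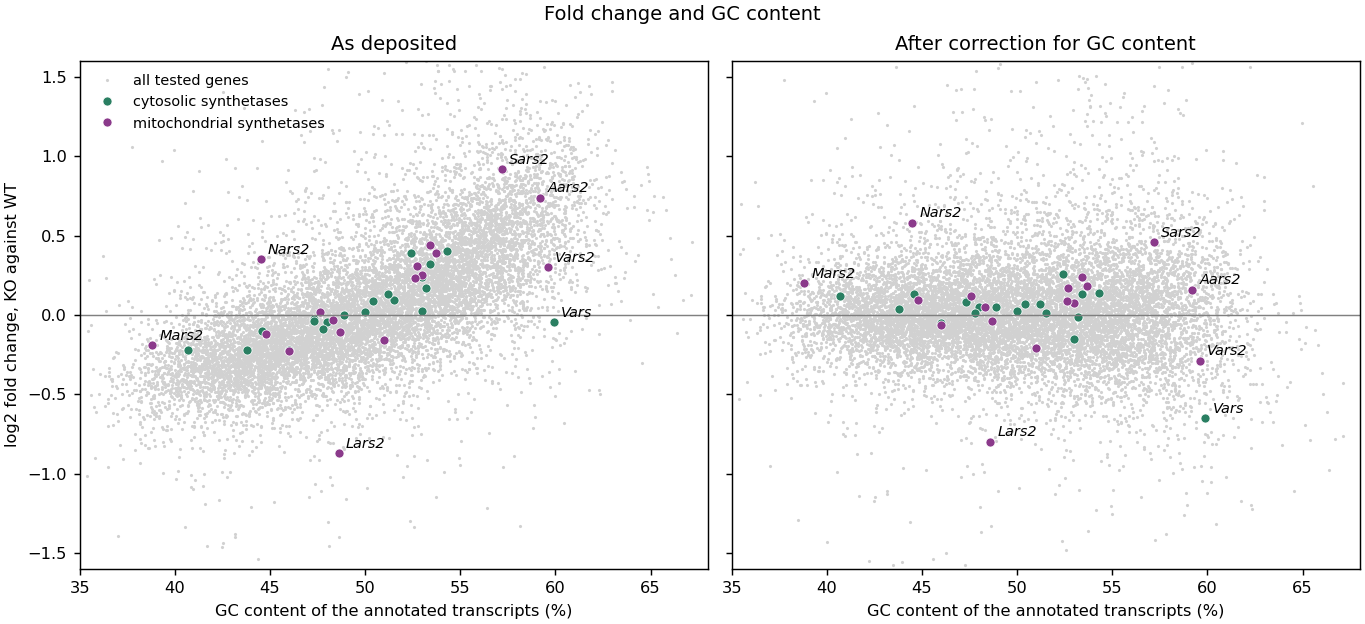
Log2 fold change of KO against WT plotted over the GC content of each gene's annotated transcripts, as deposited (left) and after the loess correction (right), with all 11985 tested genes of known GC content in grey, of which 224 lie outside the plotted range. In the left panel most synthetases lie within the slanting grey cloud, and in the right panel *Nars2* and *Sars2* lie above 0.4 and *Vars* and *Lars2* below -0.6.

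The 5 cytosolic members whose windows hold the amino acid response element core were not among those that separated the genotypes. *Aars* was at 13.8, 18 and 19.3 FPKM in WT and at 21.6, 18.4 and 20.1 FPKM in KO (log2 fold change 0.24, adjusted p = 0.333). *Yars* had a log2 fold change of 0.13, *Iars* of -0.0032, *Tars* of -0.039 and *Gars* of -0.044, and all 5 overlapped between genotypes. *Sars2* and *Aars2*, whose windows hold no match, had the largest ratios.

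ATF4 and its textbook targets other than synthetases were set beside them, since cytosolic synthetases are among the genes that this factor activates. The list held 30 genes, of which 25 were tested. *Trib3*, *Fgf21*, *Gdf15*, *Slc7a11* and *Stc2* had means under 0.5 FPKM and were not tested, and *Fgf21* was at 0 in every library. Of the 25 tested genes of that list, none passed the adjusted threshold in limma, 11 were higher and 0 lower at an unadjusted p under 0.05, and 12 lay above WT in every KO library (48.0%). Over all tested genes these shares were 15.3%, 10.9% and 18.3%. The median GC content of the list was 54.6%, and of all tested genes at 52% or more 40.5% lay above WT in every KO library. After the GC correction 5 genes of the list were higher and 1 was lower at that level, and 4 lay above WT in every KO library. The shares over all tested genes were then 5.72%, 5.47% and 8.97%. The median log2 fold change of the list was 0.48, and 0.22 after the GC correction, above that of either class of synthetases. *Chac1*, a glutathione-degrading enzyme, was at 5.79, 14 and 6.28 FPKM in WT and 25.9, 18.5 and 21.9 FPKM in KO (1.44, adjusted p = 0.075). *Phgdh*, the first enzyme of serine synthesis, was at 0.61, 0.773 and 0.566 FPKM in WT and 1.6, 2.58 and 1.53 FPKM in KO (1.39, adjusted p = 0.067). *Shmt2*, the mitochondrial enzyme that turns serine into glycine, was at 4.13, 4.92 and 4.91 FPKM in WT and 6.92, 8.56 and 7.56 FPKM in KO (0.71, adjusted p = 0.0667). After the GC correction the log2 fold change of *Chac1* was 0.98, with overlap. That of *Phgdh* was 1.02 and that of *Shmt2* 0.21, both without overlap.

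*Sesn2*, a stress-induced inhibitor of mTORC1, was at 0.32, 0.395 and 0.573 FPKM in WT and 0.745, 0.777 and 0.841 FPKM in KO. Its log2 fold change was 0.77 (adjusted p = 0.178), and 0.23 with overlap after the GC correction. The WT mean of *Sesn2*, 0.43 FPKM, was under the filter of 0.5 FPKM, which the gene passed through its KO mean of 0.788 FPKM. It is counted among the higher genes of the list, at a level where the pseudocount of 0.1 weighs on the fold change. *Eif4ebp1*, a repressor of cap-dependent translation that was chosen after its values were seen, was at 24.2, 24 and 26.2 FPKM in WT and 35.7, 39 and 38.2 FPKM in KO. The log2 fold change was 0.60 (adjusted p = 0.0667), and it was again 0.60 after the GC correction. The *Atf4* transcript itself was at 114, 121 and 125 FPKM in WT and 114, 101 and 119.8 FPKM in KO, with overlap and a log2 fold change of -0.10. After the GC correction that value was -0.42 (unadjusted p = 0.00501 in limma), and the KO libraries were all below the WT libraries. *Asns*, a target often used to read the response, had a log2 fold change of -0.21 with overlap.

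The factors that use charged tRNA and the genes that prepare it were mixed. Of 10 cytosolic elongation and release factors, 4 were higher and 2 lower at an unadjusted p under 0.05, against 15.3% and 10.9% of all tested genes, and none passed the adjusted threshold in limma. *Eef1a2*, the muscle form of the factor that brings charged tRNA to the ribosome, was at 244, 371 and 409.7 FPKM in WT and 553, 539 and 585 FPKM in KO (log2 fold change 0.75, adjusted p = 0.0879), but at 0.10 after the GC correction. *Eef2*, the translocation factor (0.68), *Eef2k*, its inhibitory kinase (0.46), and *Eef1d*, an exchange factor subunit (0.31), also lay above WT in every KO library. After the GC correction *Eef2* was at 0.23, *Eef2k* at 0.27 and *Eef1d* at 0.014, and 0 of the 10 factors lay above WT in every KO library.

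Of 10 mitochondrial translation factors, 1 was higher and 3 were lower at an unadjusted p under 0.05, against 15.3% and 10.9% of all tested genes, and the median was -0.16. *Tufm*, which brings charged tRNA to the mitochondrial ribosome, had a log2 fold change of 0.38 (adjusted p = 0.148), whereas the release factor *Mtrf1* (-0.40), the recycling factor *Mrrf* (-0.35) and the initiation factor *Mtif2* (-0.32) were below WT in every KO library. After the GC correction *Tufm* was at 0.06, *Mtrf1* at -0.22 and *Mtif2* at -0.054, all with overlap. *Mrrf* was at -0.27 and *Mtif3*, another initiation factor, at -0.41, both still below WT in every KO library. The median of the list was then -0.029. The mitochondrial synthetases had medians of 0.23 and 0.092 in the same fits, and the difference between the lists was not tested.

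Of 13 genes of tRNA processing, *Tsen34*, a subunit of the splicing endonuclease (0.59), was higher and *Rpp30*, of ribonuclease P (-0.39), and *Ssb*, which binds the ends of new tRNAs (-0.33), were lower at an unadjusted p under 0.05, a level that 15.3% of all tested genes passed as higher and 10.9% as lower. After the GC correction *Tsen34* was at -0.0024 and *Rpp30* at -0.10, and *Ssb* turned to 0.093. *Prorsd1*, a relative of the prolyl enzymes (-0.38), was the one of 6 synthetase relatives below WT at that level. *Gatc*, a subunit of the mitochondrial glutamine amidotransferase (-0.28), was the one of 3 genes of mitochondrial tRNA amidation and formylation. With the correction *Prorsd1* and *Gatc* were at -0.026 and -0.25. Of 12 amino acid sensors and stress kinases, 3 were higher and 1 was lower (25% and 1 of 12, against 15.3% and 10.9% of all tested genes). *Gcn1l1*, a partner of the uncharged-tRNA sensor GCN2, was at 2.95, 3.74 and 4.47 FPKM in WT and 6.19, 6.6 and 7.34 FPKM in KO (0.85, adjusted p = 0.07, and 0.48 after the GC correction). *Ppp1r15a* (0.60) and *Mtor* (0.52) were the others that were higher, and *Eif2ak2*, the double-stranded RNA kinase (-0.63), was lower. After the GC correction *Ppp1r15a* was at 0.24 and *Eif2ak2* at -0.39, both with overlap, and *Mtor* was at 0.33 without overlap. *Eif2ak4*, the gene of GCN2, overlapped between genotypes (-0.25).

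**Figure D5:**
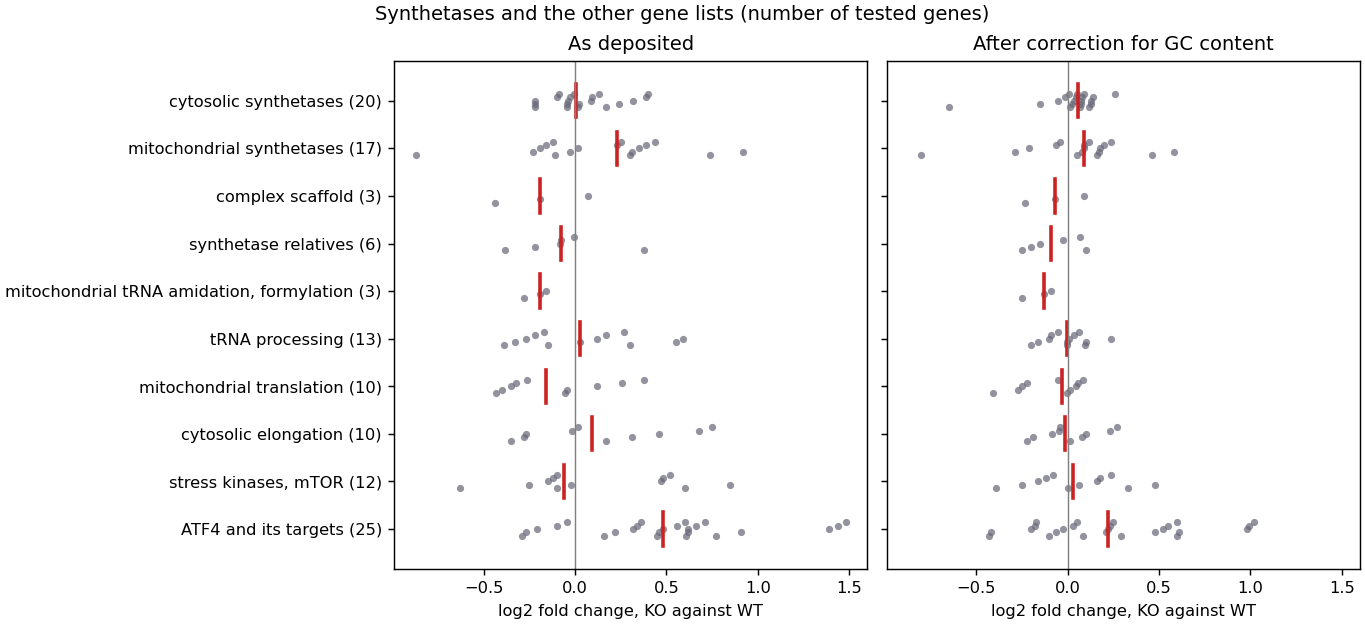
Log2 fold change of KO against WT for the synthetases and for the other gene lists, as deposited (left) and after the GC correction (right), with 1 point per gene and a red line at the median. ATF4 and its targets have the highest median in both panels, 0.48 and 0.22, and the medians of both synthetase classes lie close together in the right panel.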

How the data were processed

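GAS RNA of 3 KO and 3 WT mice was sequenced from stranded mRNA libraries. The authors mapped reads to GRCm38 with TopHat and deposited FPKM values from Cufflinks, with 1 column per library and fragments scaled to transcript length and library size. Tool versions and the annotation release are not given in the sources used here. Groups came from the genotype in the labels.

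Differences were tested with limma 3.58.1 in R 4.3.3, with a variance trend, on log2(FPKM + 0.1) for the 12334 entries with a mean of at least 0.5 FPKM, two-sided, with Benjamini-Hochberg adjustment over all of them and calls at an adjusted p under 0.05. The pseudocount understates changes of low genes. FPKM are not counts, so no count test was run. Coordinates and GC content came from GENCODE vM21, which held 32916 of the 37979 identifiers. For the GC correction, each library's deviation from the mean was fitted by loess (span 0.3) on GC content and subtracted. Depth was estimated from low FPKM values that fall on whole fragments within 0.15, as 89.7% to 93.8% did. The fit was tested on simulated data.

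The members and lists were chosen with earlier results of these data known. Members were named in full if they passed an unadjusted p under 0.05, did not overlap between genotypes or were among the 3 highest or 3 lowest by level, and genes of other lists if they did both of the first, at most 4 per list. Other names were chosen after their values were seen. Marker lists were summed without a test. Alternatives covered the pseudocount, the filter, scaling, variance model, library weights, replicate block, GC content, length and leaving out each library. The largest number of equal values between any 2 libraries was 1, and replicates were separate mice. Values of 1 member and 1 promoter site are not reported here.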

Additional observations from a re-analysis of the deposited data

How the results depend on the processing

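The class medians moved by less than the spread between single libraries under every alternative run, from -0.069 to 0.096 for the cytosolic and from 0.038 to 0.30 for the mitochondrial enzymes. Counts of calls moved more. The 31 genes called higher became 7 with a pseudocount of 1, 9 without a filter, 20 with centred libraries, 11 after quantile normalization, 12 without a variance trend, 1863 with library weights, 6 with the GC correction, 11 with a length correction, 1 among genes above 0 in all libraries, and 6 to 19 when a library was left out. The 9 called lower became 4 with a pseudocount of 1, 1284 with library weights, 0 among genes above 0 in all libraries, and 5 to 19 when a library was left out (7 after quantile normalization). Leaving out WT replicate 8 gave both counts of 19. The 7 synthetases higher at an unadjusted p under 0.05 without overlap became 2 with the GC correction and 3 to 8 when a library was left out (3 without KO replicate 8 and 4 without KO replicate 1). The 0 synthetases lower in that way became 1 without a filter, 3 with centred libraries or the length correction, 2 after quantile normalization or with library weights, 1 with the GC correction, and 0 to 1 when a library was left out. The 0 synthetases called at the adjusted threshold became 8 with library weights, among them *Farsa*, *Aars2*, *Tars2*, *Ears2*, *Mars*, *Sars* and *Sars2*. With the GC correction, with or without the replicate block, *Dars* went to 0.12, *Rars* to 0.038, *Mars2* to 0.20, *Nars* to 0.01 and *Wars2* to 0.051, and *Wars2* ranged from -0.16 to 0.15 when a library was left out (0.025, 0.03 and 0.15 without KO replicate 7, KO replicate 8 and WT replicate 8). The cause of these shifts was not tested.

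Deviations of same-numbered KO and WT libraries correlated at -0.025, -0.080 and 0.034, so the numbers were not treated as pairs, and not every library correlated best with its own number. With the replicate number as a block, 6 genes were called higher and 7 lower, and with the GC correction and the block 5 were called higher, 2 synthetases were higher and 1 was lower at an unadjusted p under 0.05 without overlap.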

Other observations

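The RNAs of the mitochondrial ribosome, which the mitochondrial synthetases supply, were looked at after the other values were seen. *mt-Rnr1*, the small subunit RNA, was at 1341, 1675 and 1306 FPKM in WT and at 596, 819 and 923 FPKM in KO. *mt-Rnr2*, the large subunit RNA, was at 1242, 1655 and 1066 FPKM in WT and at 516, 721 and 714 FPKM in KO. Both were below WT in every KO library, as were 16.2% of all tested genes. Of the 17 mitochondrial synthetases, 8 were above WT in every KO library (47.1%, against 18.3% of all tested genes). After the GC correction 4 of the 17 were above, against 8.97% of all tested genes, and no corrected value is given for these RNAs. The library kit selects mRNA, and no test was run on these RNAs.

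The transcript *AY036118*, also looked at after the values were seen, was at 1.27, 2.23 and 0.244 FPKM in WT and at 2.12, 1.17 and 1.21 FPKM in KO. Like *Lars2*, it was highest in WT replicate 7, lowest in WT replicate 8 and highest among KO libraries in replicate 1. The part of either in the other was not tested.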
